A study of Homo sapiens with 8 samples.

Results

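The genes described here encode the core machinery of RNA interference, measured in SH-SY5Y neuroblastoma cells that carried an RNAi construct against DJ-1 or a scrambled control construct. Of 10 genes listed, 7 had a probe set of their own on the array: DROSHA, DICER1, TARBP2, PRKRA, AGO1, AGO3 and AGO4. They were chosen by name, with earlier results of these data known. Taking the probe sets that the array annotation gives to exactly 1 of these genes left 12 of the 22215 probe sets tested, 6 of them for DICER1. All 5 probe sets of DGCR8 and AGO2 are given 2 genes by the annotation and were not counted, and XPO5 was not analysed here.

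SH-SY5Y cells are a human line derived from a neuroblastoma and resemble immature sympathetic neurons. DJ-1, the product of PARK7, is a redox-responsive protein mutated in recessive Parkinson disease. Clones B and G were stably transfected with RNAi against DJ-1, clones H and M with the scrambled control, and each of the 4 clones was measured on 2 arrays, called replicates 1 and 2 in the titles. Both conditions thus carried a transfected construct. Arrays of cells without a construct were not analysed here, so a response to a construct that was equal in all 8 arrays would not show in these comparisons. How much of its construct each clone carried or expressed is not given. The labels do not say whether the construct makes a short hairpin RNA, nor whether a clone's replicates came from cultures grown apart.

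In the microRNA pathway, primary transcripts are cut in the nucleus by DROSHA with its partner DGCR8, and the resulting hairpins are exported by exportin 5, the product of XPO5. In the cytoplasm DICER1, a second RNase III enzyme, trims the hairpin to a short duplex together with either of the double-stranded RNA-binding proteins TARBP2 and PRKRA. One strand is then held by an Argonaute protein (AGO1 to AGO4) and guides it to matching messenger RNAs. Hairpins expressed from a stable RNAi construct generally use at least part of the same pathway after transcription. Which of its steps the construct used here would need is not given.

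Of the 6 DICER1 probe sets, 3 were called as modestly higher in the knockdown clones, and there was no called difference for the other 6 genes. DICER1 probe sets 212888_at and 206061_s_at were 1.35-fold and 1.40-fold higher, and the brightest, 213229_at, had a difference of 1.32-fold that did not pass. The third called set, 216260_at, had a signal so low that it cannot be told from background. With the replicate number as a block, 212888_at and 206061_s_at lost their calls (limma adjusted p = 0.060 and 0.063) and that dim set alone kept its own. With duplicates averaged, so that the clone is the unit, 0 of the 12 probe sets were called, and 1 of all 22215. Leaving out any single knockdown array also left no member called. TARBP2, which partners DICER1, lay higher in every knockdown array than in any control array, by 1.20-fold, without passing. The interval of PRKRA, the alternative partner, was narrow and centred near 0. For AGO3 and AGO4 the gap between control clones H and M (0.48 and 0.40 in size) was wider than that between the conditions (0.25 and 0.15), with none of these called.

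PARK7 was examined first, as the check of the labels. It fell by 2.90 on the log2 scale (SE 0.09, limma adjusted p = 1.67e-06), from 13.08 ± 0.09 to 10.18 ± 0.18 (SD, n = 4 arrays each). The median log2 signal of an array lay between 8.03 and 8.08. The number of arrays, 8 from 4 clones, limits the precision of every value, and each condition has only 2 clones. The p-values between conditions reflect only the spread among these arrays, between clones and between duplicates. Part or all of the spread between duplicates may be technical. Of 13 measured markers of sympathetic neuroblasts, 12 had a mean signal reaching the median probe set (8.06, the median of the probe sets' mean signals), and TH, the tyrosine hydroxylase gene, was below it. All 5 leukocyte and all 6 epithelial markers, PTPRC and EPCAM among them, were below it.

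The first comparison asked whether the machinery differed between the 4 knockdown and the 4 control arrays. By limma, with clones as a random block, 3 of the 12 probe sets were called (Benjamini-Hochberg adjusted p under 0.05), all higher and all for DICER1. Over all probe sets, 2.96% were called in either direction, 1.53% as higher and 1.43% as lower. At an unadjusted p under 0.05 there were 5 of the 12, against 19.9% of all. Probe sets of 1 gene share their transcript and are not independent, so these counts weigh DICER1 more than the other genes. By the brightest probe set per gene, 0 of the 7 genes were called, against 376 of all 11963. An unadjusted p under 0.05 was found for 2 of the 7, against 2509 of all genes. All knockdown arrays lay above all control arrays for 2 of the 7, against 815 of all genes. In 5 of the 12 the lowest knockdown array lay above the highest control array, against 6.68% of all probe sets, and in 0 the reverse held, against 5.03%. Of the 12, 10 had a positive difference, 9 after quantile normalization, and the median was 0.20. Over all probe sets 50.7% were positive, 52.5% after quantile normalization, and the median was 0.0029. A mean signal at or above the median probe set was found for 8 of the 12. Among genes with a brightest probe set at that level 61.3% were positive, 53.9% after quantile normalization, and their median difference was 0.05.

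**Figure D1:**
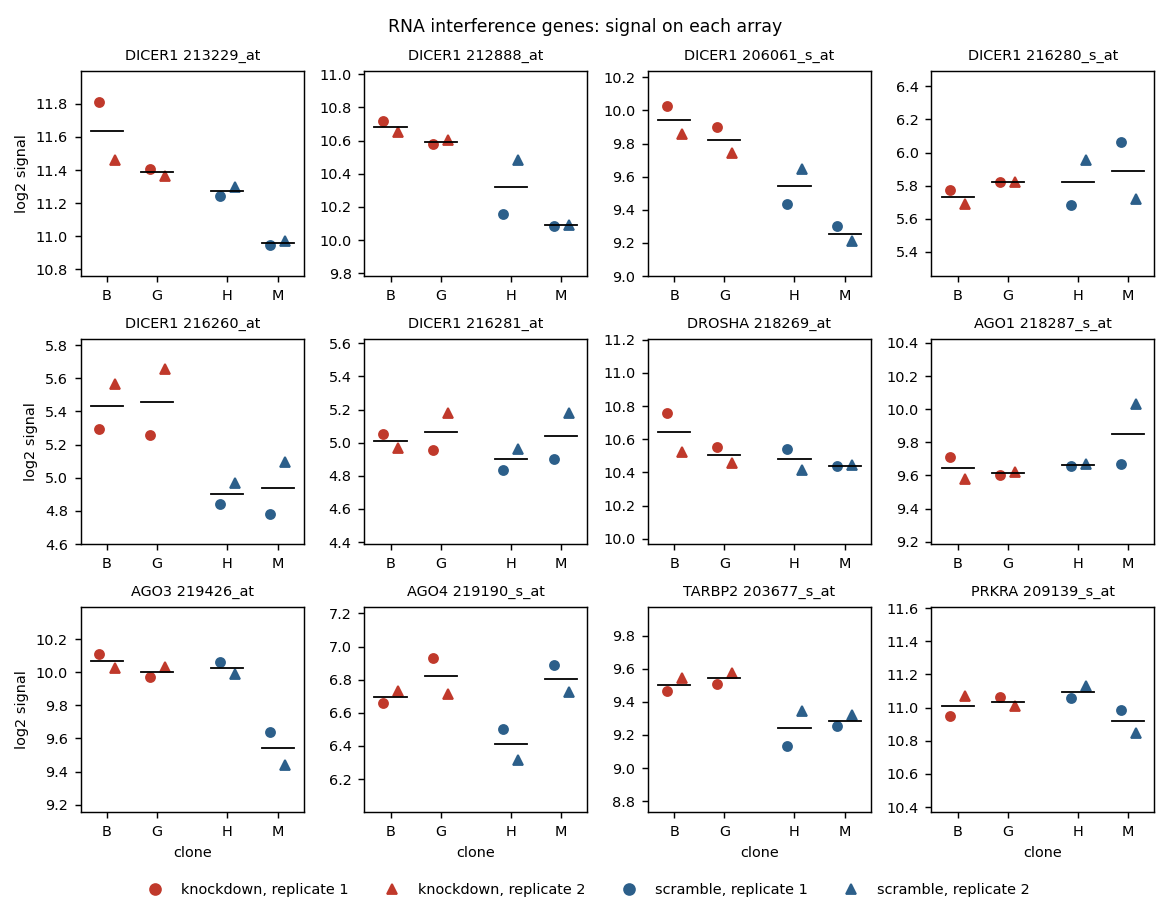
Log2 signal (vertical axis, the same height of scale in each panel but its own position) of the 12 probe sets by clone (horizontal axis), with circles for replicate 1, triangles for replicate 2, red for knockdown, blue for scramble and bars for clone means (n = 2 arrays). The knockdown and control arrays do not overlap for 4 DICER1 panels and for TARBP2, while clone M stands apart for AGO3 and clone H for AGO4.

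DROSHA, the nuclear RNase III enzyme that opens the pathway, had signals of 10.76 and 10.53 in clone B, 10.55 and 10.46 in G, 10.54 and 10.41 in H, and 10.44 and 10.44 in M. The conditions overlapped, and array B1 was the highest of the 8. The difference was 0.11 (SE 0.08, 95% interval -0.06 to 0.29, limma adjusted p = 0.44). The interval reaches from 0.960-fold to 1.22-fold.

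DICER1 was represented by 6 probe sets, of which 3 were brighter than the median probe set. The brightest, 213229_at, stood at 11.81 and 11.46 in clone B and 11.41 and 11.36 in G, against 11.24 and 11.30 in H and 10.95 and 10.97 in M. Every knockdown array lay above every control array, and clone M was the lowest. The difference was 0.40 (SE 0.12, 95% interval 0.13 to 0.66) with limma adjusted p = 0.11, so this probe set did not pass.

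Probe set 212888_at gave 10.72 and 10.65 in B and 10.58 and 10.60 in G. The controls gave 10.16 and 10.48 in H and 10.09 and 10.09 in M. Array H2 came closest to the knockdown arrays, without overlap. DICER1 rose here by 0.43 (SE 0.09, limma adjusted p = 0.044), from 10.20 ± 0.19 to 10.64 ± 0.06 (SD, n = 4 each). With the replicate number added as a block the adjusted p was 0.060, which ends the call. That fit called 1 of the 12, against 3.35% of all probe sets.

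Probe set 206061_s_at gave 10.03 and 9.86 in B and 9.90 and 9.74 in G. In the controls it gave 9.44 and 9.65 in H and 9.30 and 9.21 in M. The order of the clones was that of the other bright DICER1 probe sets, with B highest, then G, H and M. DICER1 rose here by 0.48 (SE 0.11, limma adjusted p = 0.046), from 9.40 ± 0.19 to 9.88 ± 0.12 (SD, n = 4 each), and this call was also lost with the replicate block (adjusted p = 0.063).

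The other 3 DICER1 probe sets had mean signals of 5.82 or less, well below the median probe set, where a transcript signal cannot be separated from background without detection calls. One of them, 216260_at, gave 5.30 and 5.56 in B, 5.26 and 5.65 in G, 4.84 and 4.97 in H and 4.78 and 5.10 in M. The conditions did not overlap, and replicate 2 was higher than replicate 1 in each clone. The difference was 0.52 (SE 0.10, limma adjusted p = 0.034), and it kept its call with the replicate block (adjusted p = 0.013). The remaining dim sets, 216281_at and 216280_s_at, differed by 0.07 and -0.08 (limma adjusted p = 0.68 for each), with overlapping conditions.

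Whether DICER1 probe sets disagreed was tested on the within-array difference from the brightest set, with a two-sided exact permutation test over 70 arrangements of the arrays, whose smallest possible p is 0.029. It exchanges arrays freely although they come from 4 clones, and a pair alone at that p would not pass the adjustment over 5 pairs, so it says little on whether the sets agreed. Of 5 pairs, 0 passed after adjustment over the pairs and 0 had an unadjusted p under 0.05. The widest gap was that of 216280_s_at, whose knockdown difference was 0.47 below that of the brightest set (exact permutation p = 0.057, adjusted p = 0.29). The 3 bright sets varied together over the 8 arrays, with Pearson r of 0.89 to 0.97. This correlation describes arrays that share clones and normalization.

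The number of DICER1 calls varied with the arrays included, as did the number over all probe sets. Leaving out array B1, B2, G1 or G2 left 0 member probe sets called, while calls over all 22215 probe sets went from 657 to 225, 69, 212 and 207. In these fits 212888_at differed by 0.41 to 0.45 and 206061_s_at by 0.43 to 0.53. Without clone B or clone G 0 members were called, with 13 and 22 calls over all probe sets. Without M1 or M2 the count was 1, with 570 and 500 over all. Without H2 it was 5, with 3751 over all. Without clone M it was 5, with 2117 over all, and without clone H it was 7, with 8685 over all. With duplicates averaged, so that the clone is the unit, it was 0 by limma, where 1 of 22215 probe sets (0.0045%) was called in all. In that fit 5 of the 12, 4 of them of DICER1, had an unadjusted p under 0.05, against 15.8% of all probe sets. The direction held in all alternatives for the 3 bright sets: 213229_at ranged from 0.24 to 0.55, 212888_at from 0.32 to 0.55, and 206061_s_at from 0.34 to 0.63.

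**Figure D2:**
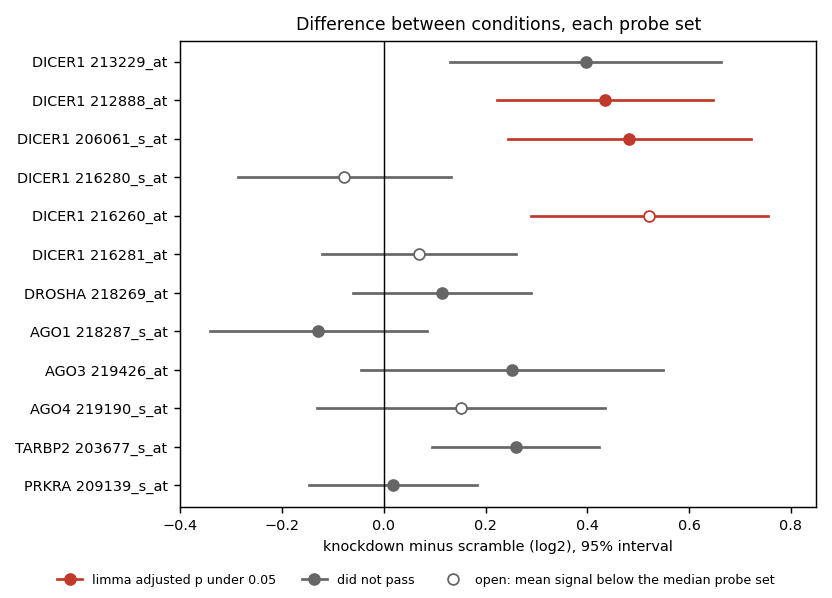
Knockdown minus scramble difference in log2 signal (horizontal axis) with its 95% limma interval for each of the 12 probe sets (n = 4 arrays per condition), red where the adjusted p was under 0.05 and open where the mean signal was below the median of all probe sets. The 3 red intervals all belong to DICER1, and that of PRKRA is centred near 0.

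Other measures are given beside DICER1. The difference between the 3' and 5' control probe sets of ACTB, a measure of RNA integrity, was 0.24 to 0.46 in knockdown and 0.10 to 0.30 in control arrays. The same measure for GAPDH was 0.05 to 0.09 in knockdown and 0.02 to 0.13 in control arrays, so the knockdown range lay within the control range. All 7 measured replication genes, the MCM2 to MCM7 helicase subunits and PCNA, had a positive difference, and 1 of them, MCM4, rose (0.66, limma adjusted p = 0.042), against 376 of all 11963 genes. With the replicate block 6 of the 7 were called, against 443 of all genes, with PCNA the exception (adjusted p = 0.087). Their mean log2 signal was 11.54 to 12.09 in knockdown and 10.83 to 11.50 in control arrays. Mesenchymal and fibroblast markers had 10 of 10 negative differences, 7 of 10 after quantile normalization, with 0 called in limma and 3 at an unadjusted p under 0.05. Of all 11963 genes, 5953 had a negative difference and 2509 an unadjusted p under 0.05. The mean signal of these markers was 7.46 to 7.76 in knockdown and 7.68 to 8.69 in control arrays. Clone M stood apart for some of them: FN1 averaged 9.80 in M, 7.85 in H and 7.79 in the knockdown arrays, and COL3A1 averaged 9.62, 6.69 and 6.27. Between H and M 5 of the 10 had an unadjusted p under 0.05, with 0 called by limma. Of all 11963 genes, 1542 had such a p in that comparison and 140 were called. Neuroblast markers had 12 of 13 positive differences, 11 after quantile normalization, with 0 called and 5 at an unadjusted p under 0.05. The count of 5 is to be read against the 2509 of all 11963 genes. Among genes with a brightest probe set at or above the median level 61.3% were positive, and 53.9% after quantile normalization. The mean signal of the neuroblast markers was 11.72 to 11.85 in knockdown and 11.30 to 11.71 in control arrays. Between H and M 1 of the 13, DBH, was called by limma (adjusted p = 0.020), beside the 140 of all genes. DBH averaged 13.49 in H, 12.79 in M and 13.54 in the knockdown arrays. The median of the 13 was 0.16 for H minus M and 0.17 for knockdown minus scramble. The part of these measures in the DICER1 result was not tested.

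The sequence before the DICER1 start site is shown because DICER1 is the 1 member with called probe sets. RefSeq (GRCh38.p14) lists 5 start windows for it, and the deposited values do not tell which start was used. The 250 bases before the first start listed lie at chr14:95157530-95157779 on the minus strand and run 5′ to 3′ as follows, with capitals for matches to a CCAAT box (CCAAT) and a GC box (GGGCGG).
DICER1 upstream: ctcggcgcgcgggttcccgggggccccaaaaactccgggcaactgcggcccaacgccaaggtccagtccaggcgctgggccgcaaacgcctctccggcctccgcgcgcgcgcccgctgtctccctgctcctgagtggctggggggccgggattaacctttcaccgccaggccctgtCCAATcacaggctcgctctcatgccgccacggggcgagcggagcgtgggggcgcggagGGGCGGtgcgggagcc
The CCAAT match lies 70 to 74 bases and the GC box match 11 to 16 bases before the start. Both strands were searched in the first window of 27305 genes, of which 33.0% hold CCAAT and 42.3% GGGCGG. An E-box (CACGTG) is in 6.49% of these windows and in 0 of the 7 windows of the measured members. The DICER1 window holds 30 CG dinucleotides, against a median of 11 over all genes. TARBP2, the other member whose conditions did not overlap, has 15 in its first window, with 3 matches to CCAAT and 1 to GGGCGG. These matches describe letters in a window and were not set against the expression values.

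TARBP2, the double-stranded RNA-binding partner of DICER1 that also restrains the kinase PKR, stood at 9.46 and 9.55 in clone B and 9.51 and 9.57 in G. In the controls it stood at 9.13 and 9.34 in H and 9.25 and 9.32 in M. The conditions did not overlap, and the clones of a condition lay within 0.05 of each other. The difference was 0.26 (SE 0.07, 95% interval 0.10 to 0.42), with an unadjusted p of 0.0058 and a limma adjusted p of 0.096. It passed when probe sets below the median were left out (adjusted p = 0.0498), and also without array H2, clone H or clone M (adjusted p = 0.029, 0.0094 and 0.025).

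PRKRA, the other partner of DICER1 and an activator of PKR, gave 10.95 and 11.07 in B, 11.06 and 11.01 in G, 11.06 and 11.13 in H and 10.99 and 10.85 in M. The conditions overlapped throughout. Its difference was 0.02 (SE 0.07, limma adjusted p = 0.92), with a 95% interval from 0.903-fold to 1.14-fold. EIF2AK2, which encodes PKR, differed by 0.13 (limma adjusted p = 0.31).

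The Argonaute genes AGO4, AGO1 and AGO3 follow each other on chromosome 1 in the RefSeq order of protein-coding genes, and their probe sets did not share a pattern. AGO3 stood at 10.11 and 10.03 in B, 9.97 and 10.03 in G, 10.06 and 9.99 in H, but 9.64 and 9.44 in M. Clone H lay among the knockdown arrays and clone M below all others. The knockdown difference was 0.25 (SE 0.13, limma adjusted p = 0.32), being 0.49 against clone M and 0.01 against clone H.

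AGO4 had the opposite order in the controls, on a probe set below the median. It gave 6.50 and 6.31 in H and 6.89 and 6.72 in M, with 6.66 and 6.73 in B and 6.93 and 6.72 in G. Clone H was the lowest here, and clone M lay among the knockdown arrays. The knockdown difference was 0.15 (SE 0.13, limma adjusted p = 0.53), being 0.35 against clone H and -0.05 against clone M.

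AGO1 gave 9.71 and 9.58 in B, 9.60 and 9.62 in G, 9.66 and 9.67 in H and 9.67 and 10.03 in M. Array M2 stood apart from the other controls. The difference was -0.13 (SE 0.09, limma adjusted p = 0.48), and -0.04 without M2. With clone H left out, the controls are clone M alone and 8685 of 22215 probe sets were called, among them AGO1 (-0.22, limma adjusted p = 0.029) and AGO3 (0.49, adjusted p = 6.27e-04). With clone M left out, the controls are clone H alone and 2117 were called, among them AGO4 (0.35, adjusted p = 0.029). These calls compare the knockdown with 1 control clone each.

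AGO2, the Argonaute that cuts its targets in human cells, has 1 probe set that the array annotation also gives to CASC7, a symbol that RefSeq now lists as a synonym of AGO2. Taken as AGO2 and kept out of the counts above, it gave 8.08 and 8.02 in B, 7.94 and 8.07 in G, 8.27 and 7.96 in H and 8.19 and 7.99 in M. Its conditions overlapped, and the difference was -0.08 (SE 0.09, 95% interval -0.28 to 0.13, limma adjusted p = 0.67).

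**Figure D3:**
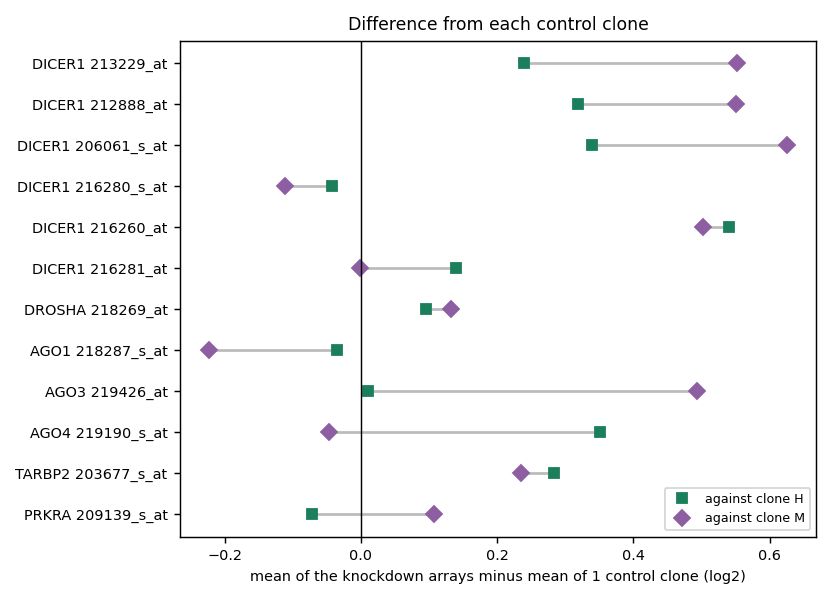
Mean of the 4 knockdown arrays minus the mean of control clone H (squares) or control clone M (diamonds), n = 2 arrays each, in log2 signal (horizontal axis) for each of the 12 probe sets. AGO3 and AGO4 lie near 0 against one control clone and away from it against the other, while both values are positive for TARBP2 and for the 3 bright DICER1 sets.

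The second comparison asked how far clones of 1 condition differed. Of the 12 probe sets, 0 were called between control clones H and M by limma, and 3 had an unadjusted p under 0.05, against 1.05% and 13.2% of all probe sets. These 3 were AGO3 (H minus M 0.48, SE 0.11, adjusted p = 0.12), AGO4 (-0.40, adjusted p = 0.27) and DICER1 213229_at (0.31, adjusted p = 0.34). With the replicate block 1 was called, against 1538 of all probe sets. Between knockdown clones B and G 0 were called and 0 had an unadjusted p under 0.05, against 0.0045% and 0.936% of all probe sets, and the differences ran from -0.12 to 0.25. Over all 4 clones, a moderated F-test in limma called 0 of the 12, with 5 at an unadjusted p under 0.05, against 2.09% and 15.2%. With the replicate block it called 5, against 3082 of all 22215 probe sets.

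For the 3 bright DICER1 sets the clones were ordered B, G, H and M, and the gap between H and M (0.23 to 0.31) was of the size of the gap between the knockdown mean and H (0.24 to 0.34). Knockdown clones exceeded M by 0.55 to 0.63 on these sets. The comparisons with H and with M share the knockdown arrays.

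The third comparison followed the replicate numbers. Replicate 2 differed from replicate 1 for 1 of the 12 probe sets, the dim DICER1 set 216260_at (0.28 higher, limma adjusted p = 0.044), against 13.4% of all probe sets. That call was lost after quantile normalization or when any clone was left out. Within replicate 1 the knockdown difference of the 3 bright DICER1 sets was 0.51, 0.53 and 0.60, and within replicate 2 it was 0.28, 0.34 and 0.37, from the brightest to the dimmest. TARBP2 differed by 0.29 within replicate 1 and by 0.23 within replicate 2. In each replicate alone limma called 0 of the 12. With 2 arrays per condition there, PARK7 itself reached limma adjusted p = 0.016 and 0.023, so this 0 says little on the members. The interaction of condition and replicate number was called for 0 of the 12 by limma, and 0 had an unadjusted p under 0.05, against 0% and 8.56% of all probe sets.

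The other genes of the pathway were taken from 6 lists with 72 measured of 99 listed genes, each by its brightest probe set. By limma 1 of the 72 passed, as higher, against 3.14% of all 11963 genes measured this way in either direction, 1.54% as higher and 1.6% as lower. It was DHX9, an RNA helicase that helps to load short RNAs into the Argonaute complex. Positive differences were found for 58 of the 72, or 54 after quantile normalization, against 61.3% and 53.9% of genes with a brightest probe set at or above the median level, where most of the 72 lie. The median of the 72 was 0.12, against 0.05 for those genes and 0.0014 for all genes. An unadjusted p under 0.05 was found for 28 of the 72, against 2509 of all 11963 genes; each list's count is to be read against that share.

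DHX9 gave 11.14 and 10.84 in B and 10.82 and 10.85 in G, against 10.25 and 10.56 in H and 10.53 and 10.40 in M. The conditions did not overlap, and array B1 stood above the other knockdown arrays. DHX9 rose by 0.48 (SE 0.10, limma adjusted p = 0.035), and the call was lost with the replicate block (adjusted p = 0.066). It was also lost without B1, B2, G1, G2 or M2 (adjusted p = 0.085, 0.18, 0.081, 0.076 and 0.053), with differences of 0.40, 0.51, 0.51, 0.50 and 0.47. Of 14 measured genes for loading and Argonaute chaperones, 10 had a positive difference, with a median of 0.13.

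Among 21 partners of nuclear processing and export, 19 had a positive difference (median 0.14) and 0 passed by limma, while 9 had unadjusted p-values under 0.05. SMAD4, a transcription factor of TGF-beta signalling, differed by 0.29 (limma adjusted p = 0.0503). ADAR, which edits adenosine to inosine in double-stranded RNA, differed by -0.28 (adjusted p = 0.053), with all knockdown arrays (11.78 to 12.01) below all control arrays (12.15 to 12.26). ADARB1, the second editing enzyme, differed by 0.59 with overlapping conditions (adjusted p = 0.12). ADAR passed after quantile normalization (adjusted p = 0.017), and ADAR and SMAD4 both passed without the dim probe sets (0.035 and 0.031).

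Of 20 Argonaute partners and effectors, 17 had a positive difference (median 0.12) and 0 passed by limma, while 8 had unadjusted p-values under 0.05. TNRC6B, a GW182 scaffold that joins Argonaute to the deadenylases, differed by 0.37 (adjusted p = 0.11), on a probe set below the median. EIF4ENIF1, which binds the cap-binding protein eIF4E, differed by 0.23 and EDC4, a decapping scaffold, by 0.21 (adjusted p = 0.11 and 0.13). For all of these the conditions did not overlap.

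Of 7 genes for microRNA turnover, tailing and methylation, 5 had a positive difference and 0 passed by limma, while 2 had unadjusted p-values under 0.05. These were the uridylyl transferase genes TUT4 (0.19, adjusted p = 0.17) and TUT7 (-0.23, adjusted p = 0.21), whose differences had opposite signs. METTL3, which methylates adenosine in RNA, differed by 0.16 (adjusted p = 0.27). Of 8 genes listed with the double-stranded RNA kinase, EIF2AK2 itself among them, 0 passed by limma and 3 had an unadjusted p under 0.05. These 3 were STAU2 (0.28), CDKN2AIP (0.28) and EIF2S1 (0.17), with limma adjusted p from 0.13 to 0.22. In the germline PIWI family, PIWIL1 and PIWIL2 differed by 0.05 and -0.18, both on probe sets below the median, with 0 called by limma and 0 at an unadjusted p under 0.05.

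**Figure D4:**
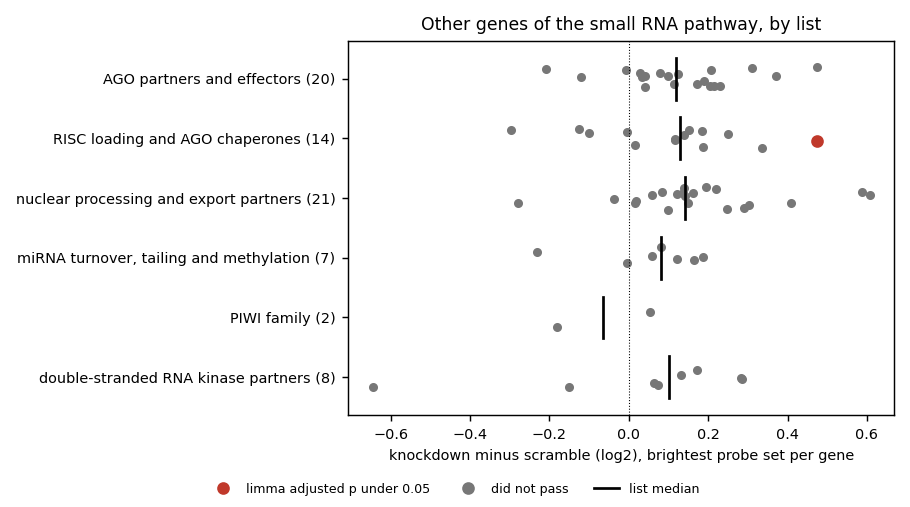
Knockdown minus scramble difference in log2 signal (horizontal axis) of 72 genes in 6 lists (vertical axis, with the number measured), 1 point per gene from its brightest probe set, and bars for list medians. DHX9 is the 1 red point (limma adjusted p under 0.05), and 58 points lie above 0.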

How the data were processed

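RNA was measured on 8 arrays. The authors deposited log2 signals per probe set, made with GCOS and RMA per the submitters' processing notes, which name no versions. The scale was read from the values. RMA forces arrays toward 1 distribution, so a shift of most genes would not show. Of 22277 probe sets, 62 manufacturer controls were left out. Of the 22215 tested, 19064 had 1 gene, and 19052 of these matched RefSeq by gene ID.

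R 4.3.3 and limma 3.58.1 gave the differences (linear models, trended variance), clone being a random block (duplicateCorrelation, statmod 1.5.0, consensus correlation -0.068), two-sided, Benjamini-Hochberg adjusted over all probe sets, at a threshold of 0.05. The correlation below 0 narrows the errors. Clones were compared with 1 mean each. This fit leaves out the replicate number. Deviations from clone means correlated between same-numbered arrays in each of the 6 pairs of clones (r = 0.42 to 0.78), so a fit with the number as a block is given where it changes a call. The fits were tested on simulated data that held no differences between clones beyond the changes added. This simulation cannot show how often differences between clones lead to false calls. Named were all member probe sets, PARK7 and, per list, the called genes or else up to 3 with the smallest p. Members and lists were chosen with earlier results of these data known. The interaction test and the scalings of list counts were added after the data were seen.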

Additional observations from a re-analysis of the deposited data

Results flagged for a closer look

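In a group of 4 arrays, 1 array was set apart where its gap to the nearest other exceeded the share of the group's range that Dixon's test sets at 95%. This was examined for 58 sets of 4 arrays, and chance gives about 2.9 such cases. There were 4. AGO1 stood at 10.03 in control array M2, against 9.66 to 9.67 in the other controls. DHX9 stood at 11.14 in knockdown array B1, against 10.82 to 10.85. TUT4 stood at 10.49 in knockdown array G1, against 10.34 to 10.37. EIF2S1 stood at 10.93 in control array M2, against 11.15 to 11.16.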

How the results depend on the processing

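The count of 3 called member probe sets became 1 without the clone block, 1 with the replicate block and 1 after median centring, and 2 after quantile normalization, where 212888_at had an adjusted p of 0.055. It became 0 with clone means, in replicate 1 or replicate 2 alone, and without clone B or G, but 7 without clone H and 5 without clone M, where 8685 and 2117 of all probe sets were called. Leaving out single arrays gave 0 to 5. The count of 1 pathway gene became 0 with the replicate block, clone means, either replicate alone, or without clone B or G. It became 2 after quantile normalization, where 651 of all probe sets were called, 2 without the trend and 3 without dim probe sets. It became 41 without clone H and 13 without clone M, where 8685 and 2117 of all probe sets were called. With single arrays left out it was 0 to 14, and the calls over all probe sets varied as well. The replicate block moved the member count from 0 to 1 for H against M and from 0 to 5 among the 4 clones. For replicate 2 against 1 the count of 1 became 0 after quantile normalization, without dim probe sets (which removes that probe set) and without clone B, G, H or M. Counts for clone B against G and for disagreeing DICER1 probe sets stayed at 0 in the alternatives run. For the DICER1 pairs this says little, since a lone pair at the smallest possible p would not pass. No called difference changed sign. Over the 12 member probe sets, 201 of the recomputed differences kept their side of the threshold, 38 lost a call and 9 gained one. Differences that stayed uncalled are counted among the 201. Of the DICER1 sets called in the main fit, 212888_at kept its call in 6 of 21 alternatives. For 206061_s_at it was 7 of 21, and for the dim 216260_at 11 of 20. Where the cause is not named, the cause was not tested. Dim probe sets limit what can be said of AGO4 and of 3 DICER1 sets.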
